A study of Triticum aestivum with 78 samples.

Results

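The gene cys1 is 1 of 771 genes with a symbol on the Affymetrix wheat array. It was found by its name, which the reference table lists as a synonym of locus LOC543181 (gene ID 543181). It is read by 2 of the 61115 probe sets tested, both of UniGene cluster Ta.99 and both designed on the same sequence accession. They are told apart here by their endings, S1_at and S1_x_at, and values are those of S1_at unless S1_x_at is named. The gene was chosen by its measured level, which was low in line A35. The seed was bread wheat, a hexaploid, taken 5 days after anthesis from field plots at 1 site and measured as whole seeds. The samples were 39 lines of the mapping population RL4452 x AC Domain, each with 2 biological replicates, which gave 78 arrays. No treatment was applied, and the parents were not analysed here. Seed coats, endosperm and embryo were measured together, so fewer cells of a type and less RNA per cell cannot be told apart. The labels do not say from which plots or plants the replicates of a line came, so p-values measure the spread between these samples.

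The annotation gives no product for cys1, and no sequence of it was used here. The working description of the gene as a cysteine proteinase or an inhibitor of one could therefore not be checked. In wheat, CYS1 has been the name of a cysteine synthase, also called O-acetylserine (thiol) lyase. That enzyme joins sulfide to O-acetylserine in the last step of cysteine synthesis, and so supplies sulfur for glutathione, methionine and the cysteine-rich proteins of the grain. Other plant genes with names of the CYS form encode cystatins, which block papain-like cysteine proteinases during seed development and germination. The gene is called cys1 throughout, and neither role is taken as settled.

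Transcript levels of cys1 were high and even across the population. The probe set S1_at had 10.51 log2 intensity units in its lowest array, a median of 11.14 and 11.52 in its highest array. On the linear scale these were 1458, 2256 and 2937 intensity units, a 2.01-fold span over all 78 arrays. Every array lay far above 5.07, the level of the median probe set, below which signals are taken as dim. The median of the 39 line means was 11.16. The lower and upper quartiles of the lines were 11.08 and 11.23, a 1.11-fold difference. The lowest line, A35, and the highest, A88, differed 1.70-fold.

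**Figure D1:**
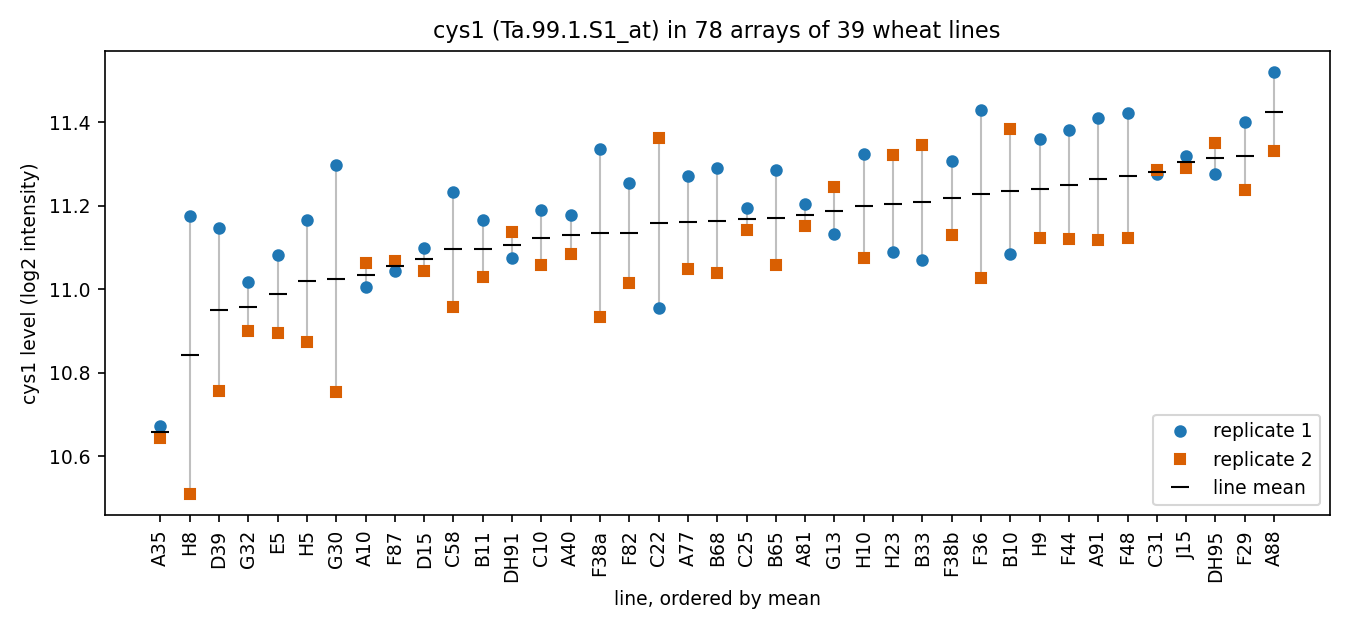
Levels of cys1 (S1_at, log2 intensity) in the 39 lines, ordered by line mean. Circles and squares are the replicate 1 and replicate 2 arrays, black bars their mean and grey lines the span between them. A35 is lowest with arrays at 10.67 and 10.64, H8 spans 10.51 to 11.18, and A88 is highest.

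At the low end, A35 had 10.67 in replicate 1 and 10.64 in replicate 2. H8 had 11.18 and 10.51, so its low mean of 10.84 came from replicate 2. D39 had 11.15 and 10.76. Both arrays were low in A35, while H8 and D39 each held 1 array near the middle of the population. G32 followed with 11.02 and 10.90, and E5 with 11.08 and 10.89, so their replicates differed by 0.12 and 0.19.

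At the high end, A88 had 11.52 and 11.33, for a mean of 11.43 ± 0.13 (SD, n = 2, as for all line means here). F29 had 11.40 and 11.24, and DH95 had 11.28 and 11.35. These lines overlapped, since the lower A88 array lay below the higher array of both. J15 had 11.32 and 11.29, and C31 had 11.28 and 11.29, the closest pair of all lines.

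The other 29 lines had means from 11.02 in H5 to 11.27 in F48, a span of 0.25. From the lower end these were H5 at 11.02 ± 0.21, G30 at 11.02 ± 0.38, A10 at 11.03 ± 0.04, F87 at 11.06 ± 0.02 and D15 at 11.07 ± 0.04. Next were C58 at 11.09 ± 0.19, B11 at 11.10 ± 0.10, DH91 at 11.11 ± 0.05, C10 at 11.12 ± 0.09 and A40 at 11.13 ± 0.07. In each of these 10 lines the SD was larger than the distance to the next line above. In the middle stood F38a at 11.13 ± 0.28, F82 at 11.13 ± 0.17, C22 at 11.16 ± 0.29, A77 at 11.16 ± 0.16 and B68 at 11.16 ± 0.18. C25 at 11.17 ± 0.04, B65 at 11.17 ± 0.16, A81 at 11.18 ± 0.04, G13 at 11.19 ± 0.08 and H10 at 11.20 ± 0.18 came next. The lines F38a and F38b, which share a stem in their names, had 11.13 and 11.22. Above these were H23 at 11.20 ± 0.17, B33 at 11.21 ± 0.19, F38b at 11.22 ± 0.13, F36 at 11.23 ± 0.29 and B10 at 11.23 ± 0.21. H9 at 11.24 ± 0.17, F44 at 11.25 ± 0.19, A91 at 11.26 ± 0.21 and F48 at 11.27 ± 0.21 closed the group. Neighbours in this order were separated by a median of 0.009 log2 units. The residual SD between replicates was 0.18, which is also the standard error of a difference between 2 line means. Of the 38 gaps between neighbours 1 was larger, the 0.19 between A35 and H8, and the gene was chosen on the low level of A35. For S1_x_at 0 of 38 gaps were larger than its residual SD, and A35 and H8 lay 0.05 apart. The next gaps were 0.11 between H8 and D39 and 0.11 between F29 and A88, so these and all other neighbours of S1_at did not differ beyond their spread.

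Since the gene was chosen for the low level of A35, the position of that line is a description without a test. A35 lay 0.50 log2 units below the mean of the other lines, 11.16, which is a 1.41-fold difference. The distance was 0.55 among replicate 1 arrays and 0.45 among replicate 2 arrays. Of the arrays of other lines, 1 was below both A35 arrays, and that was H8 replicate 2. A35 replicate 2 was scanned with 9 other arrays that ran from 10.93 to 11.29, so it was the lowest of its scan day. A35 replicate 1 was the only array of its day. For replicate 1, line and scan day cannot be told apart.

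The probe set S1_x_at gave nearly the same order of lines. Its ending marks probe sets with probes that may bind other transcripts too, and wheat carries several homoeologous copies of most genes. How many copies either probe set reads was not tested. Its levels ran from 10.89 to 11.99 with a median of 11.65. Over the 78 arrays the values of the probe sets had a Pearson r of 0.95, and the array deviations from each probe set's mean differed with an SD of 0.06. In 67 of 78 arrays they lay within 0.1 of each other. The lists of 5 lowest lines shared 4 lines, and so did the lists of 5 highest lines. A35 was again lowest, at 11.13 in replicate 1 and 11.30 in replicate 2, and H8 was next at 11.65 and 10.89. Here the mean of A35 was 0.44 below the others, 3 arrays of other lines lay below its higher array, and DH95 (11.89 and 11.97) stood above A88 (11.99 and 11.82). The array A35 replicate 2 had the largest upward departure of this probe set from the other one, by 0.15. Both share a target sequence and are not independent measurements.

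Whether the lines other than A35 differed was tested with limma's moderated F over 38 lines and 76 arrays, a contrast that A35 does not enter. Neither probe set passed. S1_at had F = 0.81 with an adjusted p of 0.952, and S1_x_at had F = 0.92 with an adjusted p of 0.914. In the same fit 5.81% of all probe sets passed at an adjusted p below 0.05, or 3549, and the count was 3643 without line H8. The 38 line means of S1_at spanned 1.5-fold, with an SD of 0.12. A p above the threshold does not show that these lines were alike. The intraclass correlation sets the variance between lines against the total. It was 0.09 over all 39 lines (95% interval from the F distribution −0.22 to 0.39, which takes the values as normal). A35, on which the gene was chosen, enters both the estimate and its interval, so they are descriptions and no test. Without A35 the estimate was −0.10, and without the H8 replicate 1 array it was 0.24. For S1_x_at it was 0.10, and −0.04 and 0.29 without these. The estimate takes no account of the shift between replicates described below. With the scan day effect removed it was 0.30 for S1_at and 0.28 for S1_x_at. A35 replicate 1, B10 replicate 2 and D39 replicate 2 were each the only array of their day. The removal sets such an array equal to its line's other array, so agreement in these lines is built in. The level of A35 then rests on its replicate 2.

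Relative to brighter transcripts as a whole, cys1 varied little in absolute terms, but not relative to transcripts of like level. Among the 30557 brighter probe sets, those above 5.07, 16.2% had a smaller SD of line means and 14.1% had a smaller residual SD. Its intraclass correlation was near their median of 0.09. Bright probe sets tend to vary less, so 1330 probe sets within 0.5 log2 units of the level of cys1 were also compared. Of these, 36.1% had a smaller SD of line means, 61.0% a smaller range between lines and 42.1% a lower intraclass correlation. Their median range was 1.61-fold. For S1_x_at, of 999 probe sets within 0.5 log2 units of its level, 45.5% had a smaller SD of line means and 62.0% a smaller range. The values of cys1 in these comparisons include A35, on which the gene was chosen. Without A35 the range of cys1 was 1.5-fold, but ranges of the other probe sets without that line were not computed.

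**Figure D2:**
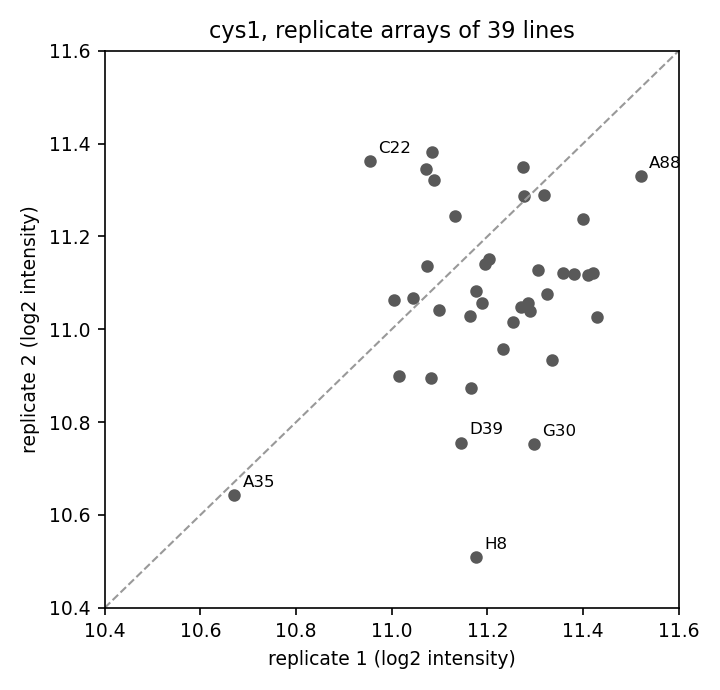
Replicate 2 plotted against replicate 1 of cys1 (S1_at, log2 intensity), 1 point per line, with a dashed line where they are equal. A35 lies farthest to the lower left, at 10.67 and 10.64, and 29 of 39 points lie below the dashed line.

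The replicate arrays of a line agreed within 0.1 log2 units in 11 of 39 lines and within 0.2 in 19, with a median absolute difference of 0.22. The 5 lines with the widest separation were H8, where the arrays differed by 0.67, G30 by 0.54, C22 by 0.41, F36 by 0.40 and F38a by 0.40. G30 had 11.30 in replicate 1 and 10.75 in replicate 2, F36 had 11.43 and 11.03, and F38a had 11.33 and 10.93. In C22 the order was the other way, with 10.95 and 11.36. Across the 39 lines the values of replicate 1 and replicate 2 had a Pearson r of 0.23 and a Spearman rho of 0.09. Without A35 the Pearson r was 0.04, and without A35 and A88, the lines farthest from the median of replicate 1, it was −0.04. For S1_x_at the Pearson r was 0.24, and 0.13 without A35. These coefficients describe 39 lines and carry no p.

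Levels of cys1 were slightly lower in replicate 2. Replicate 1 had a mean of 11.21 ± 0.16 (SD, n = 39) and replicate 2 a mean of 11.08 ± 0.20. Replicate 2 was the lower array in 29 of 39 lines, and the values of the replicates overlapped widely. The difference, in limma with line as a block, was −0.13 log2 units (SE 0.04, 95% interval −0.20 to −0.06, adjusted p = 0.00598), a 1.1-fold difference. The other probe set had −0.13 as well (adjusted p = 0.00655), with replicate 2 lower in 29 lines. The background was large, since 28.7% of all probe sets differed between replicates, with 13.2% lower and 15.5% higher in replicate 2. With each line left out in turn the difference of S1_at lay between −0.15 and −0.12 and always passed.

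**Figure D3:**
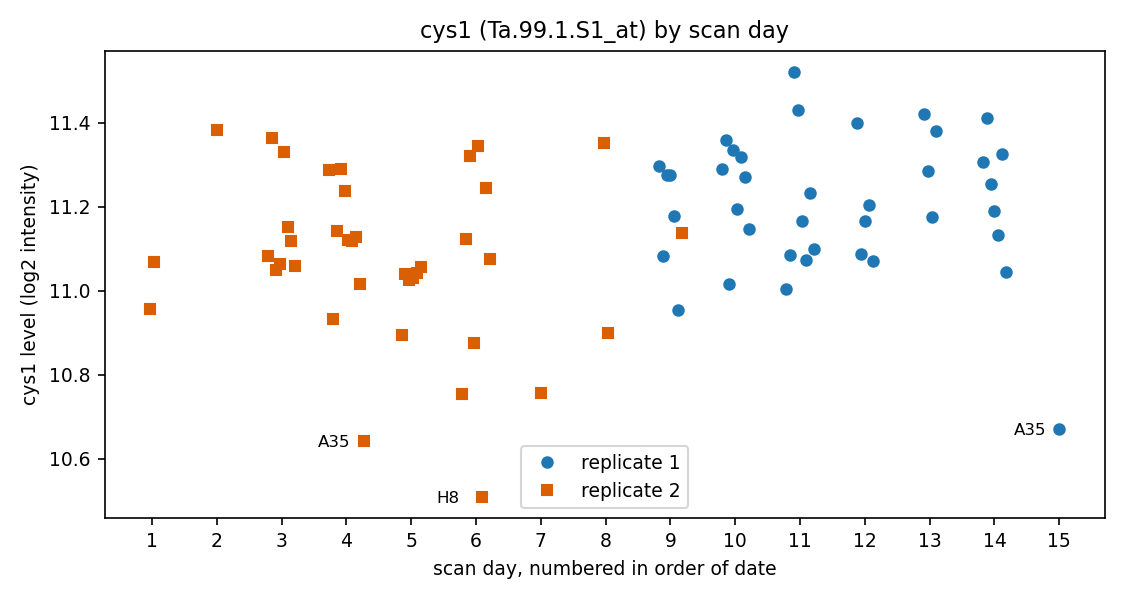
Levels of cys1 (S1_at, log2 intensity) by scan day, numbered in order of date, with 1 point per array. Replicate 2 arrays (squares) were scanned on days 1 to 9 and replicate 1 arrays (circles) on days 9 to 15. Both A35 arrays and H8 replicate 2 are the 3 lowest values.

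The replicate number cannot be told apart from the time of scanning. The project names recorded by the instrument coincided with the replicate number in 78 of 78 arrays, and only 1 of 15 scan days held arrays of both. On that day the 6 arrays of replicate 1 ran from 10.95 to 11.30 with a mean of 11.18, and the single array of replicate 2 had 11.14. Over the 10 days with at least 4 arrays, the median level of cys1 ran from 11.03 to 11.33. H8 replicate 2 (10.51) was the lowest of 8 arrays of its day, where the others began at 10.75. H8 replicate 1 was washed with another protocol, B68 replicate 2 had a run recorded as aborted and D15 replicate 2 had no protocol recorded. They had 11.18, 11.04 and 11.04, inside the range of the other arrays. H8 replicate 1 was the lowest of its day, where the 3 others began at 11.29.

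The pathway of cysteine was thinly covered by annotated genes. The list of sulfate uptake and reduction, cysteine and methionine synthesis held no probe set other than those of cys1, and the list of cysteine proteinases and cystatins held 0. For the use of cysteine in glutathione and phytochelatins, 4 probe sets of PCS1 and GSTZ1 were found. PCS1 encodes phytochelatin synthase, which makes metal-binding peptides from glutathione, and GSTZ1 a glutathione transferase of the zeta class. PCS1 ran from 6.09 to 8.63 log2 units with a mean of 7.78, and GSTZ1 (Ta.237.1.S1_a_at) from 7.50 to 9.06. None of the 4 passed the F test over 38 lines, where a GSTZ1 probe set, TaAffx.56524.1.S1_at, came nearest (adjusted p = 0.055), against 5.81% of all probe sets that passed. Between replicates all 4 passed, 1 lower and 3 higher in replicate 2, where 13.2% of all probe sets were lower and 15.5% higher. One of the 3, Ta.237.1.S1_at, was dim, with a mean level of 4.55. PCS1 was lower by 0.32 log2 units (limma with line as a block, SE 0.08, adjusted p = 0.00169), the direction of cys1, while GSTZ1 (Ta.237.1.S1_a_at) was higher by 0.22 (SE 0.06, adjusted p = 0.00434). With cys1 over 78 arrays, PCS1 had r = 0.39 and the GSTZ1 probe sets had −0.25 to 0.23. The mean of the 3 that reached the median level, each centred on its own average, had r = 0.37. Without A35 and H8 the r of that mean was 0.20. The mean was lowest in H8 replicate 2 (−0.80), also the lowest array for cys1.

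The thiol redox list held 7 probe sets of Trx-M, a plastid thioredoxin, PER1 and Prx1, and 0 of 7 passed the F test, against 5.81% of all probe sets. All 7 were among the 30557 brighter probe sets, of which 12580 passed between replicates when fitted alone. Between replicates 2 of 7 passed, both lower in replicate 2, against 28.7% of all probe sets. They were a Prx1 probe set, Ta.6572.2.S1_at (−0.18, adjusted p = 0.00775), and a PER1 probe set, Ta.14503.1.S1_at (−0.22, adjusted p = 0.0159). All 7 had a positive r with cys1, from 0.08 for PER1 to 0.45 for Prx1. The mean of the 7, each centred on its own average, had r = 0.44 with cys1, and 0.28 without A35 and H8. That mean was lowest in H8 replicate 2 (−0.46), also the lowest array for cys1. The reference table gives LOC543108 both the synonyms PER1 and peroxidase, so PER1 may not be a thiol peroxidase.

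**Figure D4:**
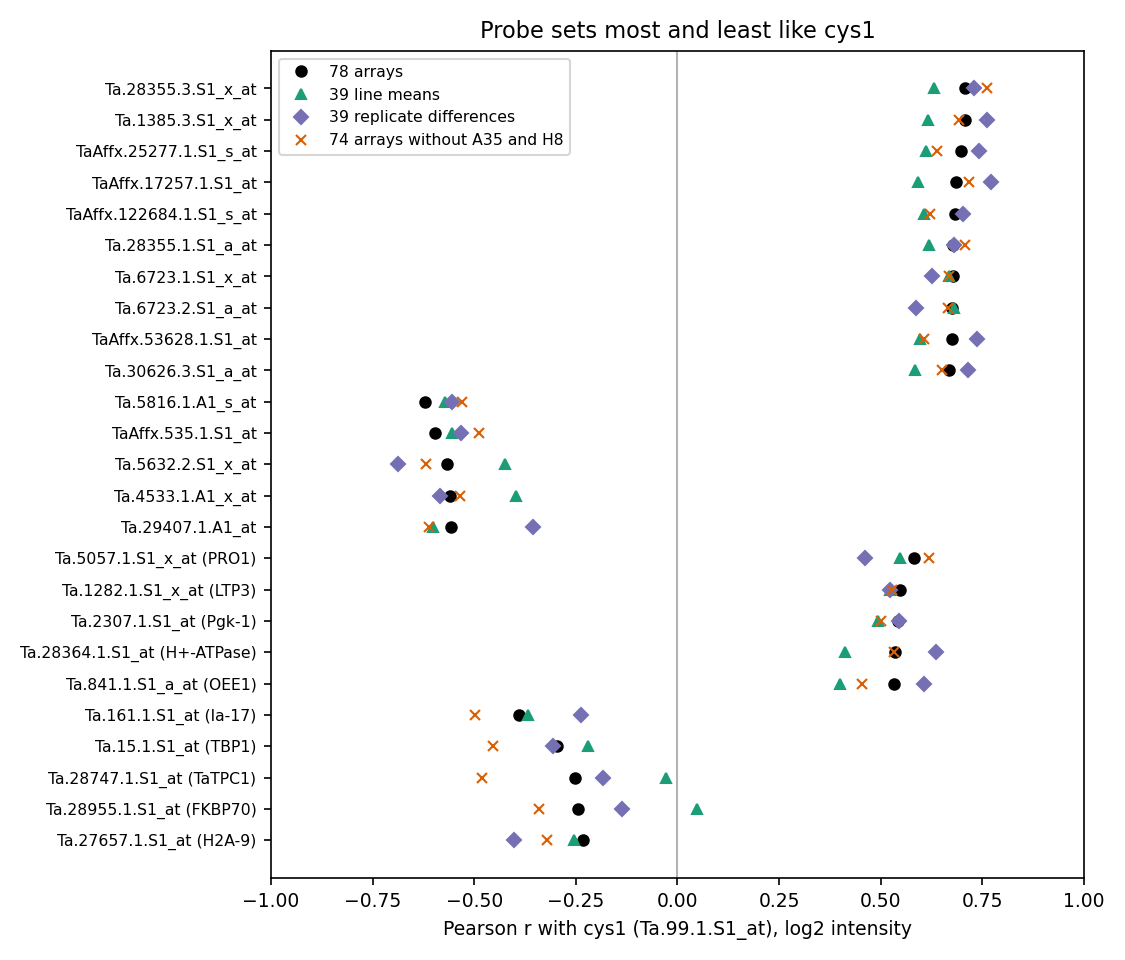
Pearson r with cys1 (S1_at) of the probe sets chosen as most and least like it, from log2 intensities over 78 arrays, 39 line means, 39 replicate differences and 74 arrays without A35 and H8. The 10 probe sets at the top have an r between 0.58 and 0.77 in these 4 measures, and over 78 arrays the named genes lie closer to 0, with at most 0.58.

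The transcripts that followed cys1 most closely were sought among the 30555 other brighter probe sets, by Pearson r of log2 levels over the 78 arrays. Their median r was 0.03. A total of 616 (2.02%) had an r of at least 0.5, and 35 (0.115%) an r of −0.5 or below. Without A35 and H8 these counts were 604 and 432, so the small number of strongly negative values depended on those lines. With the scan day effect removed, 364 had an r of at least 0.5. Arrays share line, scan day and RNA quality, so these coefficients are descriptions without a p. The 10 highest ran from 0.67 to 0.71 and had 8 different cluster numbers in their identifiers, and none has an annotated gene.

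The highest was Ta.28355.3.S1_x_at (r = 0.71), with a mean level of 11.27 and a 1.62-fold range between lines, and Ta.28355.1.S1_a_at of the same cluster had 0.68. Neither was low in A35, where they differed from the other lines by 0.01 and −0.03, and without A35 their r rose to 0.79 and 0.74. Ta.1385.3.S1_x_at (0.71) had a mean level of 12.51 and a 1.40-fold range. TaAffx.25277.1.S1_s_at (0.70), TaAffx.122684.1.S1_s_at (0.68) and TaAffx.53628.1.S1_at (0.68) were lower in A35 by 0.48, 0.53 and 0.63 log2 units, much as cys1 was. TaAffx.17257.1.S1_at (0.69) and Ta.30626.3.S1_a_at (0.67) were lower there by 0.16 and 0.17. Ta.6723.1.S1_x_at and Ta.6723.2.S1_a_at (both 0.68) followed cys1 more closely among replicate 2 arrays, with 0.79 and 0.73, than among replicate 1 arrays, with 0.38 and 0.45. The 10 were chosen on these 78 arrays, so the values over parts of the same arrays are descriptions that the choice itself favours. Over 39 line means their r lay between 0.58 and 0.68, and over 39 differences between replicates, from which the line means drop out, between 0.59 and 0.77. Without A35 and H8 it lay between 0.61 and 0.76. Ranked among replicate 1 arrays alone, 5 of the 10 stayed among the 100 highest, and 9 did among replicate 2 arrays.

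The lowest r values were weaker. Ta.5816.1.A1_s_at had −0.62 and TaAffx.535.1.S1_at had −0.60, followed by Ta.5632.2.S1_x_at at −0.57, Ta.4533.1.A1_x_at at −0.56 and Ta.29407.1.A1_at at −0.56. All 5 had higher values in A35 than in the other lines, by 0.16 to 0.36 log2 units. None has an annotated gene, and the mean levels of TaAffx.535.1.S1_at (5.43) and Ta.4533.1.A1_x_at (5.07) were close to the median of all probe sets.

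Among 125 named probe sets the median r was 0.09, and the 5 highest belonged to genes of the cell surface, cytoskeleton, carbon metabolism and photosynthesis. PRO1, a profilin that binds actin monomers, had r = 0.58 (Ta.5057.1.S1_x_at, mean level 12.01, 1.88-fold range between lines). The other PRO1 probe set, Ta.5057.3.A1_at, was brighter at 13.41 and had r = 0.28. LTP3, a lipid transfer protein, had 0.55 with a mean level of 13.75. LTP3 was lower in A35 by 0.70 log2 units and PRO1 by 0.30. Pgk-1, a phosphoglycerate kinase, had 0.54 with a 1.51-fold range. A probe set of the proton pump gene listed as H+-ATPase had 0.54, and its level in A35 was the same as in the other lines, 11.68. OEE1, the PsbO subunit of the oxygen-evolving complex, had 0.53 with a mean level of 12.54. Without A35 and H8 these 5 had values from 0.45 for OEE1 to 0.62 for PRO1. The 5 lowest named probe sets were la-17 (−0.39), the TATA-binding protein gene TBP1 (−0.30), the cation channel gene TaTPC1 (−0.25), the immunophilin gene FKBP70 (−0.24) and the histone gene H2A-9 (−0.23). The coefficient of la-17 was −0.71 among replicate 1 arrays and 0.06 among replicate 2 arrays, and those of TaTPC1 and FKBP70 also changed sign among replicate 2 arrays.

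Marker lists of the tissues in a seed were set beside cys1. The endosperm list, of starch synthesis, storage protein, inhibitor and thionin genes, held 29 probe sets, of which 14 reached the median level, led by AGP-S at 10.97, a probe set of ALP at 10.33 and GBSS at 9.50. The mean of these 14, each centred on its own average, ran from −0.95 to 3.47 log2 units between arrays, and its r with cys1 was 0.01. Of the 29 probe sets, 12 passed the F test over 38 lines, against 5.81% of all probe sets. In replicate 2, 2 were lower and 0 higher, against 13.2% and 15.5% of all probe sets. The A35 arrays were near the bottom of that range at −0.83 and −0.86, while H8 replicate 2, the lowest array for cys1, had −0.02. The list of dividing cells, histones and tubulins, had 28 of 28 probe sets above that level and an r of 0.04, with 0 passing the F test (5.81% of all probe sets). In replicate 2, 6 of its members were lower and 4 higher, where 28.7% of all probe sets differed. Of the 30557 brighter probe sets fitted alone, 12580 differed, 5425 lower and 7155 higher. The pollen and anther list, which includes PRO1, had 4 of 7 above the median level and an r of 0.15, and an r of −0.04 without A35 and H8. These 4 were both PRO1 probe sets (r = 0.58 and 0.28), TaTPC1 (−0.25) and a raftin1b probe set with a mean level of 5.39 (0.05). The other raftin probe sets were below the median level. The mean of the 4 therefore mixes opposite values and says little of anther tissue. None of its 7 members passed the F test (5.81% of all probe sets), and 2 were lower and 1 higher in replicate 2 (13.2% and 15.5% of all probe sets).

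Photosynthesis genes, which are active in the green seed coats of young grain, varied in their r with cys1. Their list held 34 probe sets, and the 10 that reached the median level all had a positive r, from 0.01 for PRK to 0.53 for OEE1. Their median r was 0.28. The brightest members, 2 probe sets of rbcl, had only 0.07 and 0.08. The members below the median level, all of rbcl, ran from −0.28 to 0.35, and most of them had a negative r. Of the 34, 1 passed the F test (5.81% of all probe sets), and 5 were lower and 3 higher in replicate 2 (13.2% and 15.5% of all probe sets). The mean of the 10 ran from −0.28 to 0.27 between arrays and had r = 0.58 with cys1 over 78 arrays, 0.51 over 39 line means and 0.50 without A35 and H8. A35 had −0.28 and −0.19, and H8 replicate 2 had −0.21. The part of tissue make-up or RNA quality in the level of cys1 was not tested.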

How the data were processed

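The deposited table holds 1 intensity for each probe set in each array. Per the submitters' processing notes, the authors used RMA, whose version is not given in the sources used here. This method corrects background, gives all arrays 1 distribution and combines the probes of each set. The values were linear (5.04 to 27696, array medians 32.1 to 36.4), so log2 was taken with no constant added. The instrument files that the authors deposited gave scan day, project and wash record. From 61290 probe sets, 111 control and 64 reporter sets were left out. A single gene symbol was annotated to 1273 of the 61115 tested, more than 1 symbol to 0, and none to 59842. For names only, 1272 were matched to a RefSeq gene table, and 200 had a name other than a locus number (the first listed is printed).

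Per the labels, spikes were tagged at visible anthers and seed was frozen 5 days later. Plots lay in a lattice of 49 entries with 3 replications, and the labels do not say which replication an array came from. The genotype effect over 38 lines and the difference of replicate 2 from replicate 1 (line as a block) were fitted on all probe sets with limma (version 3.58.1, R version 4.3.3), using lmFit and then eBayes. A call is a Benjamini-Hochberg adjusted p below 0.05. Both fits were tested on simulated data. Levels, correlations and plots came from Python 3.11.15 (pandas 2.3.3, numpy 2.4.6, scipy 1.17.1 and matplotlib 3.10.9). The number of arrays limits the precision.

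The named probe sets are those of cys1, the 10 highest and 5 lowest by Pearson r with the S1_at probe set of cys1, the 5 highest and 5 lowest of those with a name, and members of the cysteine, glutathione and proteinase lists. Thiol redox genes and leading tissue markers were named after their values were seen. The gene and the lists were chosen with earlier results of these data known. Alternatives were the replicate number as a block, scan day, a second quantile normalization, a filter on dim probe sets, array weights, and leaving out H8, arrays with another, an aborted or no wash record, or each array in turn.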

Additional observations from a re-analysis of the deposited data

How the results depend on the processing

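The calls of cys1 held under every alternative run. Over the 38 lines other than A35, neither probe set passed with the replicate number as a block (adjusted p = 0.697 for S1_at and 0.578 for S1_x_at), with scan day as a fixed term (0.682 and 0.569), or with any array left out (0.556 to 1.00 and 0.337 to 1.00). The replicate number was not a term of the main F fit, so the shift between replicates stayed in its residual. With the block F was 1.05 for S1_at and 1.21 for S1_x_at. The number coincided with the instrument project in 78 of 78 arrays. Correlations between arrays were taken over the brighter probe sets, each centred on its mean. They averaged 0.03 within a number and −0.07 between numbers, own line left out. The lowest within a number was −0.51. Of 78 arrays, 48 were closest to an array of their own number and 23 to the other array of their line. The block moved the number of probe sets with a genotype effect from 3549 to 4852. That number was 3159 to 9981 with each array left out, the highest without H8 replicate 1, and 9364 without the 3 arrays whose wash record differed, was aborted or was missing, an alternative chosen after seeing the data. The number differing between replicates was 17527, and 15935 to 22749 with each line left out. The range of line means was 1.59-fold to 1.89-fold for S1_at and 1.59-fold to 2.06-fold for S1_x_at with each array left out. Leaving out the 3 arrays whose wash record differed, was aborted or was missing gave 2.06-fold for S1_x_at. That alternative was chosen after seeing the data. The intraclass correlation was −0.0094 to 0.242 for S1_at and 0.00097 to 0.288 for S1_x_at with each array left out, the highest without H8 replicate 1. The 95% interval of each main r takes the 78 arrays as independent, which they are not. The alternatives reuse those arrays, so values inside the interval were favoured in advance. Of 208 alternative values of r for 26 probe sets, 196 lay within the 95% interval of the main value, 6 lay outside it and 6 changed sign. These were la-17 (0.057) among replicate 2 arrays, TaTPC1 (0.13 there and 0.023 with the scan day effect removed) and FKBP70 (0.074, 0.091 and, over line means, 0.047). The cause of these changes was not tested. Background correction was not varied, since values of single probes were not used here.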
